A study of Arabidopsis thaliana with 4 samples.

Results

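The genes described here are the nuclear genes of Arabidopsis for the photosystems and their light-harvesting proteins. They were taken as the loci on the 5 nuclear chromosomes whose description in the deposited table names a photosystem, a chlorophyll a-b binding protein or light harvesting, and 48 of the 22409 loci of the table met this rule. The rule used no expression value. RNA was sequenced from pools of about 50 to 100 seedlings, harvested at zeitgeber time 16 h (ZT16), the end of the light period, when the plants were 8 days old and had grown at 23°C in long days (16 h light, 8 h dark). The groups were wild type (WT, Col-0), *upf1-5*, *upf3-1* and the *upf1-5 upf3-1* double mutant, with 1 library for each genotype. Both single mutants are T-DNA insertion lines in the Col-0 background, no group received a treatment, and the double mutant came from a cross of the single mutants. UPF1 and UPF3 are factors of nonsense-mediated mRNA decay (NMD), which degrades transcripts with premature stop codons, and the RNA-seq was made to examine flowering-time genes in these late-flowering mutants.

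Photosystem II splits water and photosystem I reduces ferredoxin, and each complex is built from chloroplast-encoded core proteins together with nuclear-encoded subunits. LHCB proteins form the antenna of photosystem II and LHCA proteins that of photosystem I. They bind chlorophyll and pass light energy to the reaction centres. The transcripts of these genes are among the most abundant of green tissue, and their levels are known to depend on light, the circadian clock and the state of the chloroplast.

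Expression is given in FPKM, a fragment count scaled by the length of the transcript and by a factor for the library, so that levels can be compared between genes. A ratio is the FPKM of one library over that of another, without a pseudocount. Each genotype has a single library, so the differences below have no replicate check and no p-value, and read depth is unknown because the values used here hold no read counts. A gene was counted as different at a ratio of at least 2-fold where at least 1 of the 2 libraries reached 1 FPKM. In these whole seedlings, fewer green cells and less RNA per cell cannot be told apart.

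The mutated genes were checked first. *UPF1* was at 23.9 FPKM in WT and 3.18, 30.6 and 8.27 in *upf1-5*, *upf3-1* and the double mutant. *UPF3* was at 20.8, 33.7, 6.36 and 7.10 FPKM in the same order, so each gene was lowest in the 2 libraries labelled with its mutation. The summed FPKM over all loci was 1040995 in WT and 997083, 797314 and 775445 in *upf1-5*, *upf3-1* and the double mutant. The median ratio to WT over all loci compared was 1.00, 0.991 and 1.01 in the same mutants. The libraries were thus level in their median ratio and not in summed FPKM. Leaf transcripts were abundant in every library, with *RBCS1A*, which encodes the small subunit of Rubisco, between 8395 and 18826 FPKM. The 3 root markers (*PYK10*, *TIP2;3* and *PRP3*) summed to 1940 FPKM in WT and 1645, 3621 and 1560 in *upf1-5*, *upf3-1* and the double mutant, and nearly all of this was *PYK10*, at 1918, 1625, 3558 and 1517 FPKM. *TIP2;3* was at 13.1, 9.11, 18.5 and 6.93 FPKM. *PRP3* was at 8.82, 10.7, 44.3 and 36.4 FPKM, or 5.02-fold and 4.13-fold higher than WT in *upf3-1* and the double mutant, so the root markers did not move together. The 2 seed markers (*CRA1* and *CRU3*) summed to 0.265, 0.0805, 4.76 and 22.1 FPKM, and *CRA1* had no value in WT and *upf1-5*. The part of root or seed RNA in the results below was not tested.

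Most of these photosystem genes were less abundant in the mutants than in WT, and the difference was smallest in *upf1-5*. Summed over the 48 genes, the level was 39374 FPKM in WT and 33553, 22281 and 21409 in *upf1-5*, *upf3-1* and the double mutant. This sum made up 3.78%, 3.37%, 2.79% and 2.76% of all FPKM of the respective library. Genes at 1000 FPKM or more numbered 17 in WT and 16, 9 and 5 in the respective mutants. All 48 genes had a value in WT and both single mutants, and 47 reached 1 FPKM in at least 1 library and entered the counts. The remaining gene, AT4G37230, which is described as a PsbO protein, was at 0.490 FPKM in WT, 0.579 in *upf1-5* and 0.740 in *upf3-1*, and no value was given for the double mutant.

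In *upf1-5*, 1 of the 47 genes was at least 2-fold lower than in WT (2.13%), against 2.40% of all 19602 loci compared. In the same library, 3 were at least 2-fold higher, against 7.64% of all loci. In *upf3-1*, 13 genes were lower (27.7%) and 5 were higher (10.6%), against 6.91% and 14.6% of 19789 loci. In the double mutant, 16 genes were lower (34.0%) and 5 were higher (10.6%), against 6.91% and 15.0% of 20008 loci. With all libraries rescaled to the same summed FPKM, 8 genes were lower and 7 higher in *upf3-1*, against 3.08% and 22.2% of all loci. In the double mutant, 4 were then lower and 9 higher, against 2.56% and 24.1%. At a threshold of 1.5-fold without rescaling, 26 genes were lower and 7 higher in *upf3-1*, against 17.8% and 22.5% of all loci, and 31 were lower and 9 higher in the double mutant, against 17.3% and 23.3%. The rescaling moved the median of all loci to a log2 ratio of 0.38 in *upf3-1* and 0.44 in the double mutant. The 3 comparisons share the WT library.

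The median log2 ratio to WT of the 47 genes was -0.16 in *upf1-5*, and -0.70 and -0.87 in *upf3-1* and the double mutant, while that of all loci was 0.00, -0.01 and 0.01. Abundance differed as well between these genes and the other loci, because 27 of the 47 had a mean of 300 FPKM or more over the 4 libraries. Among the other 420 loci with such a mean, the median log2 ratio was -0.13 in *upf1-5*, and -0.61 and -0.69 in *upf3-1* and the double mutant. Of these 420 loci, 0.952%, 19.3% and 30.2% were at least 2-fold lower in the respective mutant. Lower levels of highly abundant transcripts in *upf3-1* and the double mutant were thus also found among other loci. Among the 12 photosystem genes with a mean from 100 to 300 FPKM, the median log2 ratio in the double mutant was -1.18, against -0.44 for the 1156 loci of that class. Among the 6 with a mean from 10 to 30 FPKM it was 1.22, against 0.00 for 6546 loci. Among the 14 with a mean from 300 to 1000 FPKM it was -0.88, against -0.66 for 380 loci. Among the 13 at 1000 FPKM or more it was -0.89, against -0.94 for 67 loci. The loci of each class include the photosystem genes themselves, such as 13 of the 67 at 1000 FPKM or more, so the 2 medians of a class are not independent. With that limit, at 300 FPKM or more, where most of the 47 genes lie, the medians of these genes were near those of their class. They lay further from them in the lower classes, on both sides.

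**Figure D1:**
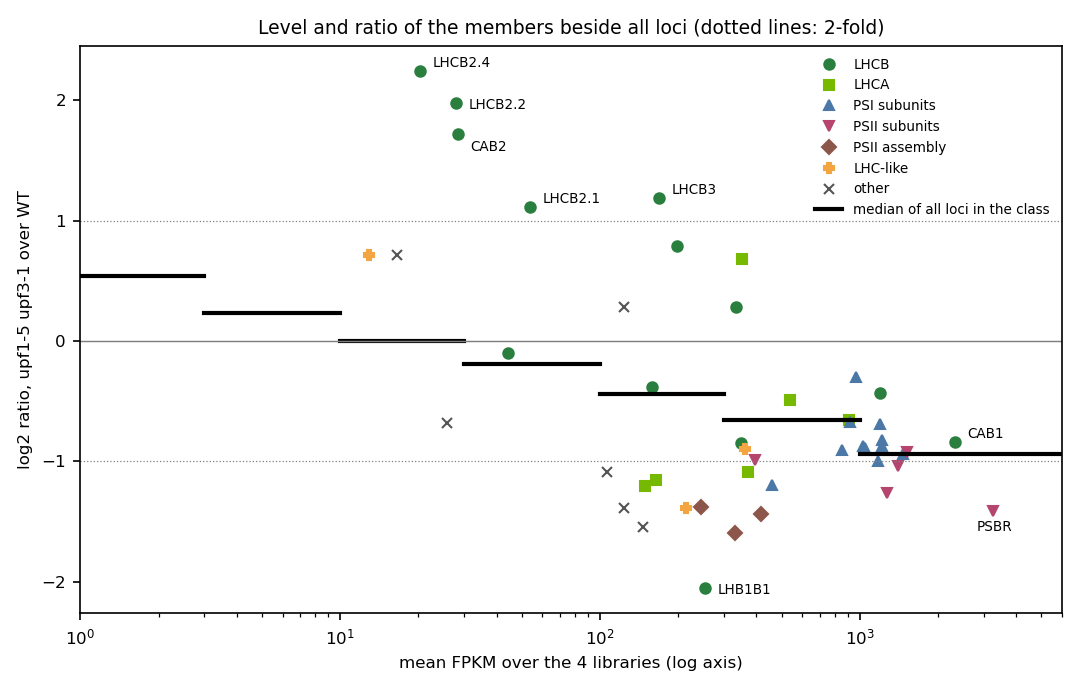
Mean FPKM over the 4 libraries (log axis) against the log2 ratio of the double mutant to WT for 47 genes, with symbols for role groups and black bars for the median of all loci in each class of mean FPKM. The bars fall from 0.54 at 1 to 3 FPKM to -0.94 at 1000 FPKM or more, *LHCB2.4* lies highest at 2.24 and *LHB1B1* lowest at -2.05.

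WT had the highest level of the 4 libraries for 31 of the 47 genes (66.0%), against 30.4% of 20048 loci. For all 31 of them, *upf1-5* lay below WT and above both *upf3-1* and the double mutant, an order found for 19.6% of all loci. WT had the lowest level for 11 genes (23.4%), against 31.0% of all loci. The double mutant had the lowest level for 21 genes and *upf3-1* for 15 genes, so neither was lower throughout. The role groups differed in their medians. In the double mutant the median log2 ratio was 0.28 for the 13 *LHCB* genes, -0.88 for the 6 *LHCA* genes, -0.87 for the 11 photosystem I subunits and -1.04 for the 5 photosystem II subunits. It was -1.44 for the 3 assembly factors of photosystem II, -0.90 for the 3 LHC-like genes and -0.89 for the 6 other genes that were counted. In *upf3-1* these medians were 0.20, -1.08, -0.70, -0.75, -0.96, -0.58 and -0.72 in the same order. In *upf1-5* they were 0.33, -0.27, -0.14, -0.26, -0.29, -0.23 and -0.15. Summed over the 13 *LHCB* genes, the level was 6748 FPKM in WT and 5395, 3901 and 4591 in *upf1-5*, *upf3-1* and the double mutant. This sum was below WT in each mutant, although the median ratio of the group was above it.

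**Figure D2:**
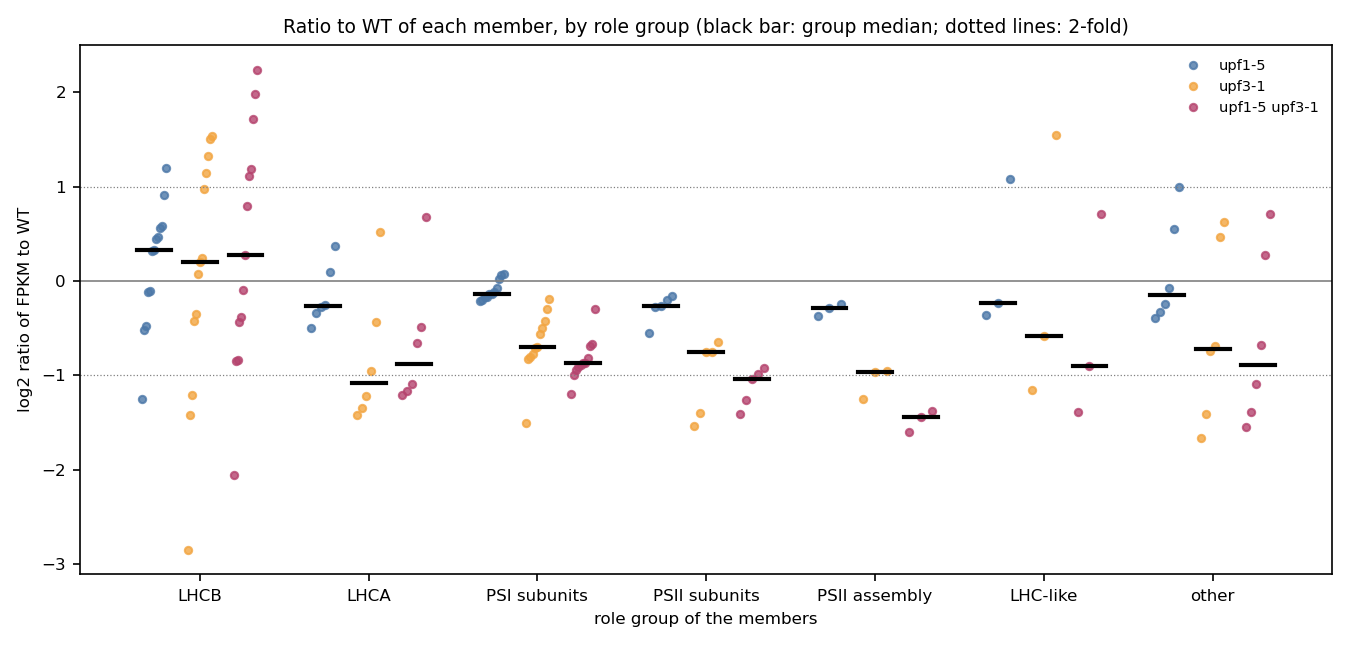
Log2 ratio of FPKM to WT for each of 47 genes (points), by role group (horizontal axis) and mutant (colour), with the group median as a black bar and dotted lines at 2-fold. The *LHCB* group spreads from -2.05 to 2.24 in the double mutant, whereas the 11 photosystem I subunits lie between -1.20 and -0.30.

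The *LHCB* group was the most divided. LHCB1, the main protein of the mobile antenna trimers, is encoded by 5 closely similar genes. *CAB1*, *CAB2* and *CAB3* lie in tandem on chromosome 1 (chr1:10477885-10479114, chr1:10474656-10475969 and chr1:10472280-10473502 in TAIR10.1). *LHB1B1* and *LHB1B2* lie 1038 bases apart on opposite strands of chromosome 2 (chr2:14524607-14525918 and chr2:14522524-14523568). Their coding sequences were 86.7% to 96.4% identical in pairs. The stretch of 60 coding bases below, from RefSeq on TAIR10.1, shows differences between the copies. It was picked for the most differing positions up to a limit of 15, so it does not stand for the whole coding sequence. Capitals mark the 15 positions at which the 5 copies are not all alike, and positions are counted from the first base of the start codon.
CAB1, 109 to 168: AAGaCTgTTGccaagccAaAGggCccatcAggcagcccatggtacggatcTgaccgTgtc
CAB2, 109 to 168: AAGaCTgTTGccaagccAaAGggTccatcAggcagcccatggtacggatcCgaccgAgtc
CAB3, 109 to 168: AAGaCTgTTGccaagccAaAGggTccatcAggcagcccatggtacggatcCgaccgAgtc
LHB1B1, 106 to 165: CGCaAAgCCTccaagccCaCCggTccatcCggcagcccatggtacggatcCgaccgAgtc
LHB1B2, 103 to 162: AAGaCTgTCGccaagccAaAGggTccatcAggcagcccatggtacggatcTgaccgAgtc
*CAB2* and *CAB3* are the same over this stretch, and *LHB1B1* differs from *CAB1* at all 15 positions. Of all windows of 75 bases in the transcript, between 3.66% (*CAB3*) and 10.4% (*CAB2*) also occur in another copy. Reads from these windows could not be assigned to a copy by their sequence alone, and the effect on the FPKM of each copy was not measured.

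*LHB1B1* had the lowest ratio of all 47 genes in each mutant. It was at 565 FPKM in WT and 237, 78.6 and 137 in *upf1-5*, *upf3-1* and the double mutant, which is 2.38-fold, 7.19-fold and 4.14-fold lower than WT. Its neighbour *LHB1B2* was at 531, 370, 199 and 294 FPKM, or 1.44-fold, 2.67-fold and 1.81-fold lower. *LHB1B1* made up 51.5% of the pair in WT but 39.1% in *upf1-5*, and 28.3% and 31.7% in *upf3-1* and the double mutant. *LHB1B1* shares no bases with another annotated gene, whereas *LHB1B2* overlaps 2 genes on the opposite strand. *AT2G08665*, for which no value was given, covers all 1045 bases of *LHB1B2*, and *AT2G34410*, at 14.6 to 22.2 FPKM, covers 99 bases.

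*CAB1* was the most abundant *LHCB* gene. Its level was 3431 FPKM in WT and 2468, 1486 and 1916 in *upf1-5*, *upf3-1* and the double mutant, which is 1.39-fold, 2.31-fold and 1.79-fold lower than WT. It held 72.6% to 76.8% of the LHCB1 sum in every library. *CAB3* was at 185, 171, 138 and 142 FPKM, and its log2 ratio of -0.38 in the double mutant became 0.05 with the libraries rescaled to the same summed FPKM. *CAB2* went the other way within the same tandem. It was at 13.7 FPKM in WT and 20.6, 34.3 and 45.1 in *upf1-5*, *upf3-1* and the double mutant, or 1.5-fold, 2.50-fold and 3.29-fold higher than WT. Its level in WT was 0.378% of the tandem sum, so reads shared with the far more abundant *CAB1* and *CAB3* could weigh heavily on it, and the values of *CAB2* are uncertain. Summed over the 5 copies, LHCB1 was at 4726 FPKM in WT and 3267, 1936 and 2534 in *upf1-5*, *upf3-1* and the double mutant.

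LHCB2, which forms trimers with LHCB1 and carries the site that is phosphorylated in state transitions, had the opposite direction. Its genes are *LHCB2.1* (chr2:1822990-1824480), *LHCB2.2* (chr2:1799234-1800472) and *LHCB2.4* (chr3:10255906-10257489). The following stretch is near the 5′ end of their coding sequences, from the model of each gene with the shortest coding sequence. It was chosen in the same way as that of the LHCB1 copies. Capitals mark the 15 positions of 60 at which the copies are not all alike.
LHCB2.1, 82 to 141: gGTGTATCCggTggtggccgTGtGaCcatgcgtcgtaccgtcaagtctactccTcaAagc
LHCB2.2, 82 to 141: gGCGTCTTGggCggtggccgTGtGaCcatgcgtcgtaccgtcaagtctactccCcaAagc
LHCB2.4, 85 to 144: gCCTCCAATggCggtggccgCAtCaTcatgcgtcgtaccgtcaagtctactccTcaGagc
*LHCB2.4* differs from *LHCB2.1* at 14 of them, and its transcript has no window of 75 bases in common with those of *LHCB2.1* and *LHCB2.2*. The windows were not compared with genes outside LHCB2. *LHCB2.1* and *LHCB2.2* share 15.3% and 19.1% of their windows.

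*LHCB2.4* had the highest ratio of all 47 genes in *upf1-5* and in the double mutant. It was at 7.40 FPKM in WT and 17.0, 21.6 and 34.9 in *upf1-5*, *upf3-1* and the double mutant, which is 2.30-fold, 2.91-fold and 4.71-fold higher. *AT3G27700*, which overlaps it by 595 bases on the opposite strand, stayed between 6.87 and 7.55 FPKM, close to the level of *LHCB2.4* in WT. Strand was not used, so reads in this overlap are uncertain. *LHCB2.2* was at 11.6, 21.7, 32.8 and 45.5 FPKM, or 1.88-fold, 2.83-fold and 3.94-fold higher than WT. *LHCB2.1* was at 32.6, 40.9, 71.6 and 70.4 FPKM, or 1.25-fold, 2.2-fold and 2.16-fold higher. All 3 genes were thus lowest in WT. Their sum was 51.6 FPKM in WT and 79.7, 126 and 151 in *upf1-5*, *upf3-1* and the double mutant. LHCB2 remained the minor isoform, with 1.08% of the LHCB1 and LHCB2 sum in WT and 2.38%, 6.11% and 5.62% in the respective mutants.

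**Figure D3:**
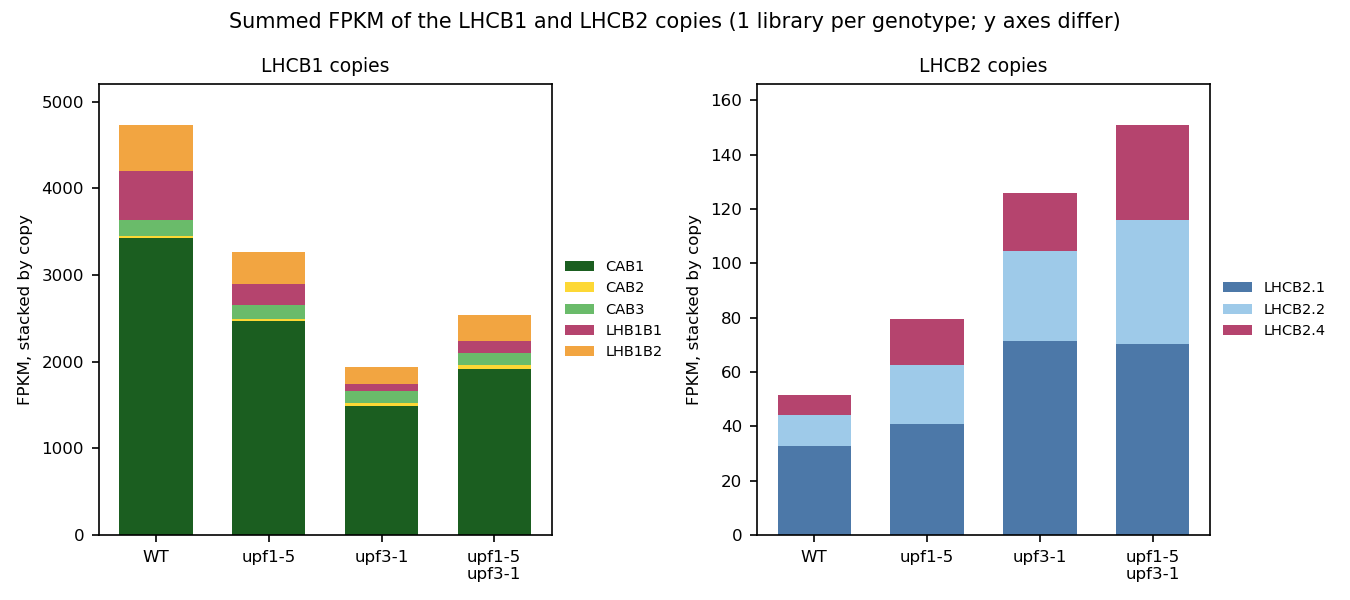
FPKM of the LHCB1 copies (left) and LHCB2 copies (right), stacked by gene, in each of the 4 libraries, with y axes of different range that start at 0. The LHCB1 stack is tallest in WT at 4726 FPKM, and the LHCB2 stack is tallest in the double mutant at 151 FPKM.

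The other *LHCB* genes encode LHCB3, a further trimer protein, and the minor antenna proteins LHCB4, LHCB5 and LHCB6, which link the trimers to the core of photosystem II. *LHCB3* was at 102 FPKM in WT and 141, 200 and 232 in *upf1-5*, *upf3-1* and the double mutant, or 1.38-fold, 1.96-fold and 2.28-fold higher. *LHCB4.2* was at 150, 204, 177 and 259 FPKM, and *LHCB6* at 289, 362, 333 and 350 FPKM. Both were lowest in WT but below 2-fold in each mutant. *LHCB4.3* was at 39.7, 58.5, 41.8 and 37.0 FPKM, and its log2 ratio of -0.10 in the double mutant became 0.32 with the same summed FPKM. *LHCB5*, the second most abundant gene of the group, was at 1390, 1284, 1088 and 1028 FPKM, and its log2 ratio of -0.35 in *upf3-1* became 0.03 with the same summed FPKM. Of the 13 *LHCB* genes, 3 were at least 2-fold lower and 4 higher in *upf3-1*, against 6.91% and 14.6% of all loci. In the double mutant 1 was at least 2-fold lower (7.69%), near the 6.91% of all loci, and 5 were at least 2-fold higher (38.5%), against 15.0%.

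**Figure D4:**
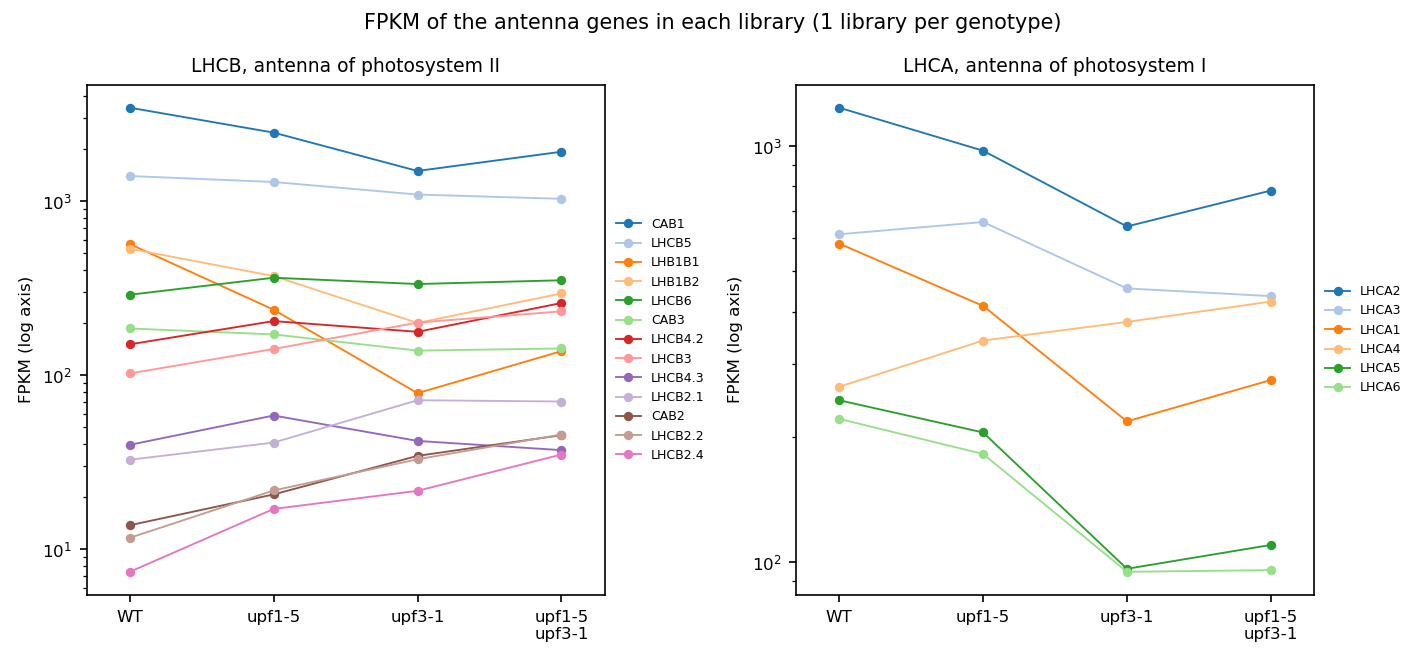
FPKM (log axis) of the 13 *LHCB* genes (left) and the 6 *LHCA* genes (right) in WT, *upf1-5*, *upf3-1* and the double mutant, with 1 point per library and lines joining the points of a gene. The lines of *LHCB2.4*, *LHCB2.2* and *CAB2* climb from 7.40 to 13.7 FPKM in WT to 34.9 to 45.5 FPKM in the double mutant, and *LHCA4* is the only *LHCA* line that is lowest in WT.

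LHCA1 to LHCA4 form the belt of photosystem I, and LHCA5 and LHCA6 join photosystem I to the NADH dehydrogenase-like (NDH) complex. *LHCA5* was at 245 FPKM in WT and 205, 96.4 and 110 in *upf1-5*, *upf3-1* and the double mutant. *LHCA6* was at 221, 182, 94.8 and 95.7 FPKM. Both linker genes were thus 2.54-fold and 2.33-fold lower in *upf3-1*, and 2.23-fold and 2.31-fold lower in the double mutant. Among the belt genes, *LHCA1* was at 583, 413, 218 and 274 FPKM, or 1.41-fold, 2.68-fold and 2.13-fold lower than WT. *LHCA2*, the most abundant of the group, was at 1237, 975, 641 and 782 FPKM, and *LHCA3* was at 614, 657, 455 and 436 FPKM. *LHCA4*, whose protein pairs with LHCA1 in the belt, was at 264 FPKM in WT and 341, 378 and 423 in *upf1-5*, *upf3-1* and the double mutant, or 1.29-fold, 1.43-fold and 1.60-fold higher. *LHCA1* exceeded *LHCA4* in WT and *upf1-5*, and *LHCA4* exceeded *LHCA1* in *upf3-1* and the double mutant.

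The 11 genes for photosystem I subunits differed little among themselves in *upf1-5*, and more in *upf3-1* and the double mutant. In *upf1-5* their log2 ratios to WT lay between -0.21 and 0.07, and 0 of 11 were 2-fold different. Of all loci, 2.40% were at least 2-fold lower and 7.64% higher there. In *upf3-1* all 11 ratios were below WT, from -1.5 to -0.19, although those of *PSAH2* and *PSAN* were above it at 0.19 and 0.08 with the libraries rescaled to the same summed FPKM. In the double mutant they lay between -1.20 and -0.30, and *PSAH2* was at 0.13 with that rescaling. The lowest ratio of the group in *upf3-1* and in the double mutant was that of *PSAE-2*. It is 1 of 2 genes for PSAE, a subunit at the stromal side where ferredoxin docks. *PSAE-2* was at 691 FPKM in WT and 599, 243 and 302 in *upf1-5*, *upf3-1* and the double mutant, which is 1.15-fold, 2.84-fold and 2.29-fold lower. *PSAE-1* was at 1088, 1133, 770 and 686 FPKM, so that *PSAE-2* made up 38.8% of the pair in WT and 24.0% in *upf3-1*. *PSAD-1*, which encodes the ferredoxin-docking subunit PSAD, was at 1479, 1497, 1004 and 737 FPKM and lay just past the threshold in the double mutant at 2.01-fold lower. For PSAH, which takes part in docking LHCII to photosystem I, *PSAH-1* was at 1119, 1062, 643 and 596 FPKM and *PSAH2* at 1036, 1086, 908 and 842 FPKM. *PSAH2* had the ratio nearest to 1 of the group in *upf3-1* and the double mutant. The gene of the group that was most abundant in WT, *PSAG*, was at 1938, 1784, 1138 and 1009 FPKM, and the other 5 genes (*PSAF*, *PSAK*, *PSAL*, *PSAN* and *PSAO*) were between 732 and 1534 FPKM in every library.

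All 5 genes for photosystem II subunits were lower than WT in each mutant. *PSBR*, a subunit close to the water-splitting site, had the highest level of all 48 genes in WT. It was at 5421 FPKM in WT and 3692, 1863 and 2044 in *upf1-5*, *upf3-1* and the double mutant, or 1.47-fold, 2.91-fold and 2.65-fold lower. *PSBTN*, which encodes a small nuclear-encoded subunit, was at 1938, 1599, 734 and 808 FPKM, or 1.21-fold, 2.64-fold and 2.40-fold lower. These 2 genes were lowest in *upf3-1*. *PSBW*, a small subunit of the complex, was at 1923, 1604, 1146 and 938 FPKM, and *PSBY* at 523, 454, 333 and 263 FPKM. *NPQ4*, which encodes PSBS, the sensor of lumen pH for the dissipation of excess light, was at 2015, 1799, 1198 and 1066 FPKM. These 3 genes were lowest in the double mutant, and their ratios there lay between 1.89-fold and 2.05-fold lower. With *PSBW* just inside the threshold and *PSBY* just outside it, 3 of the 5 genes were counted as lower in the double mutant and 2 in *upf3-1*. Of all loci, 6.91% were lower in either mutant.

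The 3 genes for assembly factors of photosystem II were the group with the lowest median in the double mutant. *PSB28* was at 510 FPKM in WT and 432, 214 and 168 in *upf1-5*, *upf3-1* and the double mutant, or 1.18-fold, 2.38-fold and 3.03-fold lower. *PSB27*, whose protein takes part in assembly and repair, was at 615, 503, 317 and 226 FPKM, or 1.22-fold, 1.94-fold and 2.72-fold lower. *HCF136*, which is required for assembly of the reaction centre, was at 367, 284, 190 and 141 FPKM, or 1.29-fold, 1.93-fold and 2.61-fold lower. All 3 genes descended in the order WT, *upf1-5*, *upf3-1*, double mutant. They were also at least 2-fold lower in the double mutant than in *upf1-5*.

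The LHC-like genes encode relatives of the antenna proteins. LIL3, which binds enzymes of chlorophyll synthesis at the membrane, is encoded by *LIL3:1* at 330, 256, 149 and 125 FPKM and *LIL3:2* at 474, 405, 316 and 253 FPKM in WT, *upf1-5*, *upf3-1* and the double mutant. *LIL3:1* was thus 2.21-fold lower in *upf3-1* and 2.63-fold lower in the double mutant, and *LIL3:2* was 1.5-fold and 1.87-fold lower. *ELIP1*, an early light-induced protein of light stress, was the reverse. It was at 6.70 FPKM in WT and 14.1, 19.6 and 11.0 in *upf1-5*, *upf3-1* and the double mutant, or 2.11-fold, 2.92-fold and 1.64-fold higher. *ELIP2*, its close relative with another description, was at 3.63, 8.13, 5.70 and 1.99 FPKM.

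The remaining 7 genes have descriptions that name PsbP, PsbQ or PsbO, extrinsic proteins of photosystem II, although relatives of these are known to serve elsewhere. *PnsL2* (AT1G14150) and *PnsL3* (AT3G01440), both called *PQL1* in the table, encode PsbQ-like subunits of the NDH complex. *PnsL2* was at 197 FPKM in WT and 150, 74.0 and 74.9 in *upf1-5*, *upf3-1* and the double mutant, or 1.31-fold, 2.66-fold and 2.63-fold lower. *PnsL3* was at 214, 171, 128 and 72.9 FPKM, or 1.25-fold, 1.67-fold and 2.93-fold lower. AT3G63540, described as a PsbP family protein, was at 162, 137, 51.3 and 76.2 FPKM, but it shares 91 bases on the same strand with *BB* (AT3G63530), at 11.6 to 16.6 FPKM, and its reads are uncertain there. AT5G27390, also of the PsbP family, had its highest level in *upf1-5*, with 88.3 FPKM in WT and 177, 122 and 107 in *upf1-5*, *upf3-1* and the double mutant. The ratio in *upf1-5* was at the threshold, at 2.00-fold. AT3G05410 was at 32.2, 30.7, 19.9 and 20.1 FPKM, and AT1G69680 at 11.8, 17.3, 18.1 and 19.2 FPKM.

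**Figure D5:**
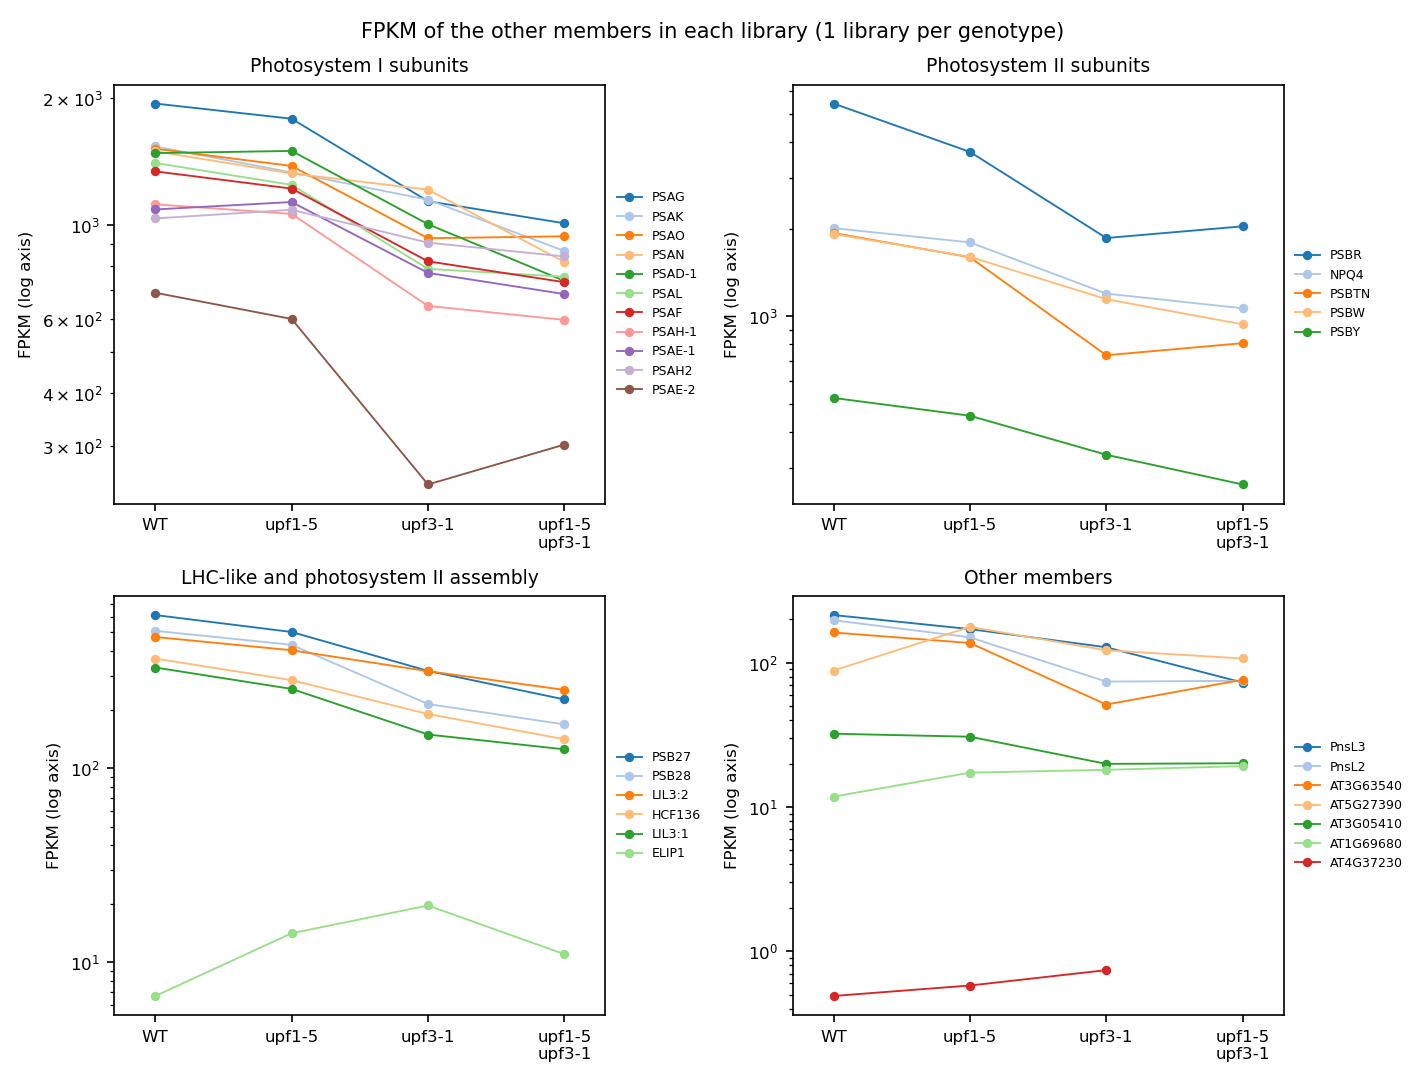
FPKM (log axis) of the photosystem I subunits, photosystem II subunits, LHC-like and assembly genes, and other genes in each of the 4 libraries, with 1 point per library and lines joining the points of a gene. *PSBR* starts highest at 5421 FPKM in WT, *ELIP1* peaks in *upf3-1* at 19.6 FPKM, AT5G27390 peaks in *upf1-5* at 177 FPKM, and AT4G37230 has no point for the double mutant.

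The mutants were also compared with each other. Between the double mutant and *upf3-1*, 0 of 47 genes were at least 2-fold lower and 0 were higher, against 4.69% and 6.67% of 20272 loci. Among the other 420 loci with a mean of 300 FPKM or more, 2.14% were lower and 2.14% higher. The ratios of the 47 genes ran from 1.78-fold lower for *ELIP1* to 1.74-fold higher for *LHB1B1* in the double mutant. Between the double mutant and *upf1-5*, 7 genes were at least 2-fold lower and 3 were at least 2-fold higher, against 4.47% and 9.64% of 20174 loci. The 3 higher genes were *CAB2*, *LHCB2.2* and *LHCB2.4*, at 2.19-fold, 2.09-fold and 2.05-fold. The 7 lower genes were the 3 assembly factors, *LIL3:1*, *PSAD-1*, *PnsL2* and *PnsL3*. Between *upf3-1* and *upf1-5*, 7 genes were at least 2-fold lower and 0 were at least 2-fold higher, against 5.33% and 8.82% of 19950 loci. The median log2 ratio of the 47 genes in the double mutant was smaller in size to *upf3-1*, at -0.02, than to *upf1-5*, at -0.70. Ratios of both directions cancel in such a median, and 24 of the 47 genes were below *upf3-1*. For the 13 *LHCB* genes the order was reversed, with medians of 0.37 to *upf3-1* and -0.05 to *upf1-5*. The smaller median to *upf3-1* was not particular to the 47 genes. The 2 medians were -0.14 and -0.59 for the 420 loci, and -0.15 and -0.72 for the other photosynthesis genes described next.

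Other genes of photosynthesis had been listed beside the photosystem genes, and 47 of the 51 had values. They encode Rubisco, electron carriers, ATP synthase, chlorophyll synthesis, insertion of antenna proteins, regulators, and thylakoid kinases and cyclic electron flow. At least 2-fold lower were 0 in *upf1-5*, and 12 and 19 in *upf3-1* and the double mutant, and 2-fold higher were 1, 0 and 0. Of all loci, 2.40%, 6.91% and 6.91% were lower and 7.64%, 14.6% and 15.0% higher in the same order. The median log2 ratios of the listed genes were -0.19, -0.78 and -0.90, close to those of the photosystem genes. Of the genes of electron transport and ATP synthase, 9 of 10 were at least 2-fold lower in the double mutant and 5 of 10 in *upf3-1*. All 10 were below WT in both. Among them was *PETE2*, the major plastocyanin, at 3468, 2685, 1428 and 1204 FPKM. Of the 5 genes of carbon fixation, 4 were at least 2-fold lower in the double mutant and 3 in *upf3-1*, and all 5 were below WT in both. Chlorophyll synthesis and breakdown had 3 of 15 at least 2-fold lower in the double mutant, and 11 of 15 below WT there. *HEMA1*, an early enzyme of the synthesis, was instead above WT in each mutant, at 58.6, 73.7, 96.6 and 68.6 FPKM. *GLK1* and *GLK2*, transcription factors that activate antenna and chlorophyll genes, were at 47.3, 41.4, 29.3 and 38.0 FPKM and at 60.8, 50.3, 44.8 and 50.7 FPKM. The gene of this list that was 2-fold higher was *CPFTSY*, the receptor for insertion of antenna proteins, at 39.1 FPKM in WT and 80.7 in *upf1-5*. A separate list held 6 photosystem and antenna-like genes whose description did not meet the rule. At least 2-fold lower among them were 0, 2 and 3 in the respective mutants, and *ELIP2* was 2.24-fold higher in *upf1-5*. Of this list, *PSBO1*, which encodes the main manganese-stabilising protein, was at 1634, 1245, 649 and 714 FPKM.

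Gene structure was examined because transcripts whose stop codon lies more than 50 nt before an exon junction are typical targets of NMD. In the TAIR10.1 annotation, 1 of the 48 genes (2.08%) has a model with such a junction, against 9.37% of 20503 genes of the table. That gene is AT5G27390, for which 1 of 4 models has the junction. Its level was 2.00-fold higher in *upf1-5*, but 1.38-fold and 1.21-fold higher in *upf3-1* and the double mutant. Over all genes of the table with such a model, the median log2 ratio to WT was 0.01, -0.02 and 0.03 in the respective mutants. Without such a model it was -0.01, -0.04 and -0.01. The other photosystem genes that were at least 2-fold higher than WT in a mutant, *LHCB2.1*, *LHCB2.2*, *LHCB2.4*, *LHCB3*, *CAB2* and *ELIP1*, have no annotated model of this kind. Transcripts outside the annotation and long 3′ untranslated regions, which can also trigger NMD, were not examined. Whether any of these genes is a target of NMD was therefore not tested. Another gene overlaps 21 of the 48 genes, on the opposite strand for 20 of them. The libraries were made with a stranded kit, but the alignment and abundance tools were run at default settings, which do not use strand. Unspliced reads of such partners can then not be told apart. The partners with a value were at 0.159 to 103 FPKM.

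The promoters were searched for short motifs of light and clock regulation on both strands, from 250 bases before to 50 after the start of each annotated gene. AT3G63540 lies too close to the chromosome end for a full window, which leaves 47 genes. The I-box core GATAAG is present in 17 of the 47 promoters (36.2%), against 14.6% of 27443 promoters. The G-box CACGTG is present in 13 (27.7%), against 7.68%. The CCA1 binding site AAAAATCT is present in 7 (14.9%), against 7.88%, and the evening element AAAATATCT in 1 (2.13%), against 2.82%. Among the 11 photosystem I subunits, 7 promoters hold the I-box core, and among the 13 *LHCB* genes 3 do. None of the 4 motifs contains another, and the G-box reads the same on both strands. The promoters of the gene with the lowest ratios and of that with the highest ratio in the double mutant are shown, with the motif matches in capitals, from RefSeq on TAIR10.1.
LHB1B1, chr2:14524357-14524656, plus strand: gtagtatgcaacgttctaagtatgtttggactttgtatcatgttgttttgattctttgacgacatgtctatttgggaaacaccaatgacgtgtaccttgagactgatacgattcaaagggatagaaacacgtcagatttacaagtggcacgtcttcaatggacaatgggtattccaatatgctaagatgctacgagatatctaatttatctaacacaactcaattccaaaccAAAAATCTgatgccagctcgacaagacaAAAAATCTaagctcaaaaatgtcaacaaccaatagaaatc
LHCB2.4, chr3:10255656-10255955, plus strand: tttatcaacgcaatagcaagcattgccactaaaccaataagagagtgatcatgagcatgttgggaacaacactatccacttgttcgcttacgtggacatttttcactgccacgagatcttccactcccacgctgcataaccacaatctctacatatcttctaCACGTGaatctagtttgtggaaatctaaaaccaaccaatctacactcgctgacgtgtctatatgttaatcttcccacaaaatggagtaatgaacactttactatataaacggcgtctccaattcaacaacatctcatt
*LHB1B1* has 2 matches to the CCA1 binding site, which start 18 bases before and at base 11 of the annotated gene. *LHCB2.4* has 1 G-box, which starts 88 bases before it. Of the 5 genes past 2-fold above WT in the double mutant, 1 each holds the I-box core (*LHCB2.1*), the G-box (*LHCB2.4*) and the CCA1 binding site (*CAB2*), while *LHCB2.2* and *LHCB3* hold none of the 4 motifs.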

How the data were processed

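RNA-seq was made from seedlings of 4 genotypes, with 1 library each. The authors aligned the reads to TAIR10 with TopHat 2.0.6 and Bowtie 2, assembled transcripts and determined abundances with Cufflinks 2.2.1, and compared the libraries in 6 pairs with Cuffdiff 2.2.1. The labels name a stranded TruSeq kit for mRNA, and the methods a stranded TruSeq kit for total RNA with rRNA depletion. All tools were run at their defaults, under which strand is not used. For each locus and pair, the deposited FPKM is that of both libraries added together. The deposited fold divides the higher by the lower library, and a separate column says which was higher. The table also holds the authors' q-values, in 1 column that was not used. The table's name for the fourth library is in no label, and it was taken as the double mutant by elimination.

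The FPKM of each library was computed from sum, fold and direction of its pairs with Python 3.11.15, NumPy 2.4.6 and pandas 2.3.3. The estimates of 1 value from different pairs differed by at most 0.410% for the 48 genes. On a simulated table of 20048 loci, with no noise between libraries, FPKM values of 1 or more were recovered with errors of at most 0.234%. All 200 loci given a 4-fold change passed 2-fold and 0 unchanged loci did, which the set ratios fixed in advance. This checks the arithmetic of the recovery alone, and not how reliable a call from single libraries is. Depth is unknown, so no interval is given. Gene models, identities (Biopython 1.88) and promoters were read from RefSeq on TAIR10.1.

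The members, lists, and comparisons were chosen with earlier results of these data known. Named were the genes at least 2-fold from WT in a mutant (25), the most abundant of each group, and members of paralog families. AT1G69680, AT3G05410, AT4G37230, *LHCB5*, *LHCB6*, *LHCA3*, *LHCA4*, *NPQ4*, *PSBY* and others were added to account for every gene. Of the genes at least 2-fold lower in the double mutant in the list of other photosynthesis genes, only examples are given. Alternatives were pseudocounts, scalings, filters, a 1.5-fold threshold, values from the pair with WT alone, and the structural and antenna genes alone.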

Additional observations from a re-analysis of the deposited data

How the results depend on the processing

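With 1 library per genotype, no value has an error, and the read depth that limits low levels such as those of *LHCB2.4* and *ELIP1* is unknown. No paired analysis was possible because each genotype has a single library. A pseudocount of 0.1, rescaling to the same median ratio or the same 75th percentile, other filters on FPKM, and values from the pair with WT alone left all directions, and all counts within 1.5 times. A pseudocount of 1 left 1 gene at least 2-fold higher in *upf1-5*. A threshold of 1.5-fold gave 26 lower genes in *upf3-1*, and 31 lower and 9 higher in the double mutant, against 17.8%, 17.3% and 23.3% of all loci. With the structural and antenna genes alone, 1 was higher in *upf1-5* and 9 were lower in the double mutant, against 7.64% and 6.91% of all loci.

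Rescaling to the same summed FPKM multiplied *upf3-1* by 1.31 and the double mutant by 1.34, and left 8 lower genes in *upf3-1*, against 3.08% of all loci, with 4 lower and 9 higher in the double mutant, against 2.56% and 24.1% of all loci there. The median log2 ratio became -0.32 in *upf3-1* and -0.44 in the double mutant. By group, in *upf3-1*, it became 0.59 for *LHCB*, -0.70 for *LHCA*, -0.32 for photosystem I, -0.37 for photosystem II, -0.20 for LHC-like, -0.57 for assembly and -0.33 for other genes. In the double mutant these were 0.70, -0.45, -0.45, -0.61, -0.48, -1.02 and -0.46. The log2 ratio changed sign in *upf3-1* for *PSAH2* (0.19), *PSAN* (0.08) and *LHCB5* (0.03), and in the double mutant for *PSAH2* (0.13), *CAB3* (0.05) and *LHCB4.3* (0.32). These shifts follow from the scaling factor itself.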
